A study of Mus musculus with 2 samples.

Results

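Chromatin accessibility was examined at 7 genes that respond to selection signals or belong to the glucocorticoid receptor pathway: Nr4a1, Nr4a2, Nr4a3, Nr3c1, Fkbp5, Per1 and Cd83. They were chosen by name, as 7 of the 21701 protein-coding genes that lie on an autosome or on X. A promoter peak had a base within 500 bp of any annotated transcription start site (TSS) of the gene, and distal peaks and footprints were taken from the gene body and 50 kb to each side. DNase-seq maps open DNA by sequencing the ends that DNase I leaves when it digests nuclei. It had been run on the whole thymus of 2 females of B6CASTF1/J, the F1 cross of C57BL/6J and CAST/EiJ, at 14 days of age. The labels call them biological replicates 1 and 2 of 1 group and give them different animal numbers with the same donor identifier, and no allele, agent or control group is labelled. They were taken as 2 animals. With 1 group and 2 samples nothing could be tested between conditions, and every value below is a description of these samples. In a bulk tissue, fewer cells of a type and less accessibility per cell cannot be told apart.

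Nr4a1, Nr4a2 and Nr4a3 encode orphan nuclear receptors of the NR4A family, immediate early transcription factors that are induced soon after the T cell receptor is engaged. Cd83 encodes a surface protein of the immunoglobulin superfamily, known in the thymic epithelium for stabilizing MHC class II and so for the selection of helper T cells. Nr3c1 encodes the glucocorticoid receptor, whose hormone kills immature thymocytes and is thought to set a limit on T cell receptor signals. Fkbp5 encodes a co-chaperone of HSP90 that lowers the hormone affinity of the receptor, and Per1 encodes a repressor of the circadian clock. Fkbp5 and Per1 are both well-known targets of the receptor.

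The promoter sequences below carry the footprints, which are short stretches protected from cutting within open DNA, and capitals mark bases inside a footprint of both replicates. All are mm10 sequence read from GRCm38.p6 (RefSeq), 5′ to 3′ on the strand of the gene, and each covers the strongest promoter peak of its TSS from at most 250 bases before to 20 bases after the TSS. Nr4a1 has 2 promoters, here at Nr4a1-202 (chr15:101254019-101254280, plus strand) and Nr4a1-201 (chr15:101266621-101266865, plus strand). Nr4a2 is shown at Nr4a2-201 (chr2:57115019-57115140, minus strand) and Nr4a3 at Nr4a3-201 (chr4:48044903-48045172, plus strand). Fkbp5 is shown at the internal start Fkbp5-201 (chr17:28486130-28486320, minus strand) and Per1 at the outermost start Per1-202 (chr11:69094967-69095236, plus strand).
Nr4a1-202 promoter: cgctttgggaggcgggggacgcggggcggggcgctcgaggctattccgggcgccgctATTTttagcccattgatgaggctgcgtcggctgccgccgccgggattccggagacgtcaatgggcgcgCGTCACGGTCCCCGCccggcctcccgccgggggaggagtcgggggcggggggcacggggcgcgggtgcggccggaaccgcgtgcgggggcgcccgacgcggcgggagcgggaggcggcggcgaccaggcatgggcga
Nr4a1-201 promoter: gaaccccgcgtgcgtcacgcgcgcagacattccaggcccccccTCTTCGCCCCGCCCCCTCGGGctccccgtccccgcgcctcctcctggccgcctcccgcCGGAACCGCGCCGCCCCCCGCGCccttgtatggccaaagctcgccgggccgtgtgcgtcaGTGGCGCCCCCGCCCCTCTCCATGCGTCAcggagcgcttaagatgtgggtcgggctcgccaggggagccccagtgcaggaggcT
Nr4a2-201 promoter: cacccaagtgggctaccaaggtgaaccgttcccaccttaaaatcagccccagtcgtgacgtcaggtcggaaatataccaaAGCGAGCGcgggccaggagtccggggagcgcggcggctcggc
Nr4a3-201 promoter: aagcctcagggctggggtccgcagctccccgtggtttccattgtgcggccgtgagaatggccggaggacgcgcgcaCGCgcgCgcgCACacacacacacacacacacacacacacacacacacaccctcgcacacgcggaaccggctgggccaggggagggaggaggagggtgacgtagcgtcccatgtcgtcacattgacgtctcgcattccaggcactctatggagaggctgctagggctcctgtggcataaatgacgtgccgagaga
Fkbp5-201 promoter: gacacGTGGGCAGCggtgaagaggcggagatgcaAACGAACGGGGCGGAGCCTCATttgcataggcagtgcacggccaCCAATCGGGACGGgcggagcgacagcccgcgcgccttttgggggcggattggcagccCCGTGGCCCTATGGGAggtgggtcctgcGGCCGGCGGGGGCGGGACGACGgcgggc
Per1-202 promoter: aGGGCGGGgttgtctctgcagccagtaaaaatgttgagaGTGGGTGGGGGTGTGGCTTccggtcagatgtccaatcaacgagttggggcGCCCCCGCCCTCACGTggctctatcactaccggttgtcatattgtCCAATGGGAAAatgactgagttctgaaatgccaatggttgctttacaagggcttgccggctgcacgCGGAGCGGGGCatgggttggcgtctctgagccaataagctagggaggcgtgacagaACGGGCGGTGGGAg

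The distal sequences below were chosen after their values were seen. They are the strongest distal peak of Nr4a1 (chr15:101246301-101246560, plus strand) and the intronic Per1 peak with a full cAMP response element (chr11:69097101-69097300, plus strand), each over the bases that the peaks of both replicates share, with capitals as above. The 3 matches to the glucocorticoid response element in peaks of the 7 genes, all at Fkbp5 on the minus strand, are given with 9 bases to each side, and there the capitals mark the match itself (match 1 chr17:28484944-28484974, match 2 chr17:28518171-28518201, match 3 chr17:28519023-28519053).
Nr4a1 upstream peak: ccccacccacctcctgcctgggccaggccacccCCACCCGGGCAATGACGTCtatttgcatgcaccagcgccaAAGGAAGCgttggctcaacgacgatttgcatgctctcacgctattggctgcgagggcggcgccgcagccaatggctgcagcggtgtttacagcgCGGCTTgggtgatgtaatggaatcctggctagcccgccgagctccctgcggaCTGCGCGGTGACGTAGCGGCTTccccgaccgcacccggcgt
Per1 intron peak: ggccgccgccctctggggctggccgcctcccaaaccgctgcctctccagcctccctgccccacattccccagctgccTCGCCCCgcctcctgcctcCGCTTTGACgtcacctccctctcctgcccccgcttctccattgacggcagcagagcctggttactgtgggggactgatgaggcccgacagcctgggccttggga
Fkbp5 match 1: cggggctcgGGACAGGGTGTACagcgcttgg
Fkbp5 match 2: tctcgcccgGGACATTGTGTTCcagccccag
Fkbp5 match 3: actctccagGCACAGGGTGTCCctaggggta

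Both replicates held a promoter peak at all 7 genes, against 58.6% of all protein-coding genes. Peaks carry a deposited signal, here their strength, which was read within a replicate. Each gene was placed by the percentile of its strongest promoter peak among all protein-coding genes of that replicate, with genes lacking a promoter peak tied at the bottom. The order was the same in the mean of both replicates as in the strengths of replicate 1: Per1, Fkbp5, Nr3c1, Nr4a1, Nr4a3, Nr4a2 and Cd83. Only the highest neighbours, Per1 and Fkbp5, had overlapping ranges of percentiles, and every other neighbour in the order was separated in both replicates. The clock and co-chaperone genes thus stood at the top, and 2 of the 3 NR4A genes and Cd83 at the bottom. This order holds for the basic GENCODE set of starts. With the full set, a peak with strengths of 13.7 and 8.25 counts as an Nr3c1 promoter peak. Fkbp5 had 13.7 and 7.39, so Nr3c1 is then not separated from it. The median of the 7 was at percentile 64.6 in replicate 1 and 59.5 in replicate 2 (mean 62.1 ± 3.61, SD, n = 2), against 69.8 and 69.3 for genes with an open promoter.

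**Figure D1:**
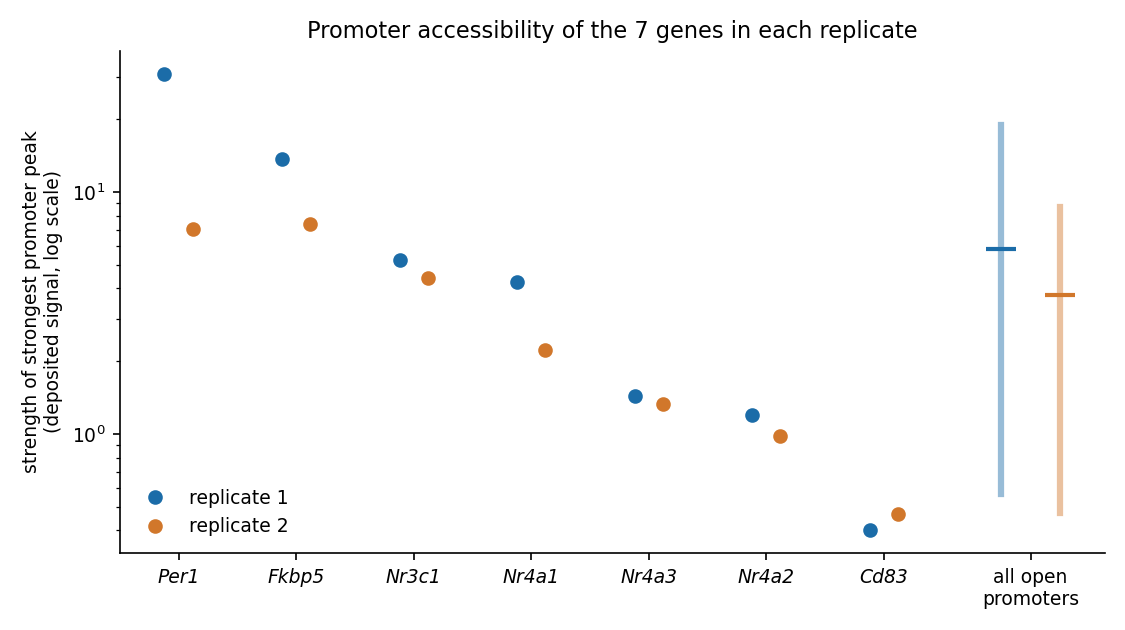
Strength of the strongest promoter peak (deposited signal, log scale) of each gene in replicate 1 (blue) and replicate 2 (orange); at the right, bars span the 10th to 90th percentile of all open promoters and the dash is their median. Per1 at 30.9 and 7.05 and Fkbp5 at 13.7 and 7.39 lie above the median of open promoters in both replicates, and Nr4a1, Nr4a3, Nr4a2 and Cd83 below it.

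Nr4a1 (ENSMUSG00000023034.7, mm10 chr15:101254269-101274795, plus strand), whose product is also called Nur77, was accessible at both annotated starts. At the outer start, Nr4a1-202, the strongest peak had strengths of 1.72 in replicate 1 and 1.21 in replicate 2. At the inner start, Nr4a1-201, which lies 12577 bp downstream, strengths were 4.25 and 2.22, higher than at the outer start in both replicates. The promoter percentile of the gene was 64.6 and 59.5. In the outer promoter a match to the MEF2 motif lay 190 bp before the TSS, and a match to the SP/KLF motif (GGGCGGGG) lay 112 bp before it, both touching footprints of both replicates. In the inner promoter a footprint seen in both replicates covered an EGR match (GCGGGGGCG) 56 bp before the TSS, which overlaps an SP/KLF match. EGR and SP/KLF factors bind GC-rich DNA, and the overlap of their letters leaves the bound factor undetermined.

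The strongest accessibility at Nr4a1 was not at a promoter. An intergenic peak 7.83 kb upstream of the outer TSS (chr15:101246261-101246620) had strengths of 18.4 and 4.66, at percentiles 99.8 and 98.5 of all distal peaks. It was 4.32 times the strongest promoter peak in replicate 1 and 2.10 times in replicate 2. Over this whole region, which joins the peaks of both replicates, there were 10 and 9 footprints, and the narrower peak of replicate 1 held 7. The next regions by rank were an intergenic peak 18.8 kb upstream (12.6 and 3.36; chr15:101235361-101235660), whose nearest coding TSS is that of Grasp, and a peak in an Nr4a1 intron 4.34 kb downstream of the outer TSS (13.2 and 3.12; chr15:101258381-101258840). All 3 were above the 95th percentile of distal peaks in both replicates. The upstream peak printed above held the 6 letters TGACGT of the cAMP response element core at 2 places, 7920 and 7738 bp before the outer TSS, and each lay inside a footprint of both replicates. This 6-letter core was added to the motifs after the sequences were seen. It occurred in 2.72% of all distal peaks of replicate 1 and 2.74% of replicate 2.

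Nr4a3 (ENSMUSG00000028341.9, chr4:48045153-48086447, plus strand), which encodes Nor1, had its strongest promoter peak at 1.44 and 1.34, at percentiles 52.8 and 53.5. A pair of stronger peaks stood just upstream of it. One, 1.65 kb before the TSS (chr4:48043321-48043680), had strengths of 6.01 and 3.28, and the other, 2.14 kb before it (chr4:48042781-48043240), had 5.84 and 2.96. Both were at percentile 94.9 or higher among distal peaks in both replicates, and the stronger was 4.18 and 2.46 times the promoter peak. A match to the SP/KLF motif at the first of these touched footprints of both replicates, though it lay in the peak of replicate 1 only. The third region, in an intron 29.9 kb downstream (chr4:48074881-48075220), had strengths of 2.68 and 0.967 and a RUNX match (TGTGGTT) that touched a footprint of both replicates. The promoter held the 6-letter core TGACGT 76 and 50 bp before the TSS and 8 bp after it. The core at 76 bp touched a footprint in replicate 1 and in replicate 2 did not.

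Nr4a2 (ENSMUSG00000026826.13, chr2:57106830-57124003, minus strand), which encodes Nurr1, was the least accessible of the family. Its strongest promoter peak, at Nr4a2-201, had strengths of 1.20 and 0.985, at percentiles 51.3 and 50.6. The outermost start, Nr4a2-203, had 0.587 and 0.697, and Nr4a2-202 had no peak in either replicate. The span held 4 distal peaks in replicate 1 and 5 in replicate 2, all inside the gene body. The strongest, in an intron 6.22 kb downstream of the outermost TSS (chr2:57117681-57117880), had strengths of 1.65 and 1.14, 1.37 and 1.16 times the promoter peak. The other region found in both replicates, also intronic, lay 7.14 kb downstream (chr2:57116301-57117420) and had 0.587 and 0.685. The Nr4a2-201 promoter printed above held a full cAMP response element (TGACGTCA), which is its own reverse complement. The element lay 44 bp before the TSS and touched a footprint in replicate 1, but in replicate 2 it did not. That element occurred in 2.29% of 41162 windows from 250 bases before to 50 after every protein-coding TSS, and the 6-letter core in 8.48%. The core stood in a promoter window of each of the 3 NR4A genes and of Per1, and in none of Nr3c1, Fkbp5 or Cd83.

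Nr3c1 (ENSMUSG00000024431.15, chr18:39410545-39519421, minus strand), the receptor gene, was accessible over a broad block of starts inside the gene. Its strongest promoter peak had strengths of 5.24 and 4.41, at percentiles 68.0 and 73.6. All 1001 bases around Nr3c1-203 and Nr3c1-201 were listed with a false discovery rate under 0.05, and all 1001 at 0.001 or less, in both replicates. The starts Nr3c1-204 and Nr3c1-202, 13 bp apart, shared a weaker peak of 0.577 and 0.593. Its 3 highest-ranked distal regions led to a limit of the annotation. The strongest (chr18:39491541-39491820) had 13.7 and 8.25, at percentiles 99.6 and 99.8, and the next (chr18:39519261-39519560 and chr18:39519561-39520020) had 4.41 and 1.85, then 1.31 and 1.31. All 3 lay within 500 bp of Nr3c1 starts that only the full GENCODE set lists, at 39491301 and 39519421, so with that set they count as promoter peaks.

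Fkbp5 (ENSMUSG00000024222.17, chr17:28399094-28517527, minus strand) was most accessible far inside the gene. At Fkbp5-201, 31378 bp downstream of the outermost start, the promoter peak had strengths of 13.7 and 7.39, at percentiles 87.9 and 89.6 of genes (mean 88.8 ± 1.16, SD, n = 2). At the outermost starts, Fkbp5-202 and Fkbp5-206, strengths were 2.11 and 1.56. Fkbp5-209 had 0.971 and 0.760, and Fkbp5-210 had no peak. At this inner promoter, Fkbp5-201, a footprint at chr17:28486136-28486157 had the same edges in both replicates and covered an EGR match (GCGGGGGCG) at the TSS itself. Of the 191 bases printed above for it, 82 lay inside a footprint of both replicates. A CACGTG E-box, the site of clock and MYC-type factors, lay 167 bp before the same TSS and touched footprints of both replicates. Both matches lie in the sequence printed above.

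Per1 (ENSMUSG00000020893.17, chr11:69095217-69109960, plus strand) had the most accessible promoter of the set in replicate 1. Its outermost start, Per1-202, had strengths of 30.9 and 7.05, at percentiles 99.1 and 88.2 of genes (mean 93.7 ± 7.72, SD, n = 2). Per1-201 had 4.54 and 2.06, and Per1-206 and Per1-203 shared a peak of 5.36 and 2.97. Each of these starts was weaker than the outermost in both replicates. The outermost promoter carried a footprint, printed above and found in both replicates, that touched a CACGTG E-box 147 bp before the TSS. The same footprint touched NF-kB (161 bp), EGR (158 bp) and SP/KLF (155 bp) matches that overlap each other, and the NF-kB match began outside it. In a Per1 intron, a peak (chr11:69097081-69097300) with strengths of 4.26 and 2.09 held the full cAMP response element 1742 bp before Per1-201, touching a footprint of both replicates. Full elements occurred in 0.418% of all distal peaks of replicate 1 and 0.34% of replicate 2. A CACGTG E-box stood in 7.58% of all promoter windows and in windows of Fkbp5, Nr4a2 and Per1.

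Cd83 (ENSMUSG00000015396.4, chr13:43784775-43803132, plus strand) had the least accessible promoter of the set. The promoter peak had strengths of 0.400 and 0.466, at percentiles 43.3 and 44.7. The peaks of both replicates were centred downstream of the TSS, by 316 and 501 bp, and Cd83 dropped out with a window of 250 bp or the shorter, stricter peak list of the authors. In the 1001 bases around the TSS, 308 and 450 were listed under 0.05, of which 0 and 207 were at 0.001 or less. The strongest distal peak of the span was a different one in each replicate. In replicate 1, at 8.56 times the promoter peak, it lay 48.2 kb downstream. In replicate 2, at 5.59 times, it lay 45.0 kb upstream. The upstream peak, intergenic (chr13:43739721-43739920), had strengths of 2.58 and 2.61, at percentiles 89.3 and 93.4 of distal peaks. The downstream peak, also intergenic (chr13:43832881-43833100), had 3.42 and 1.24, and an intronic peak 10.8 kb downstream of the TSS (chr13:43795441-43795640) had 0.779 and 1.04. No other protein-coding gene had a base in the Cd83 span, and Cd83 held the nearest coding TSS of all 16 of its distal regions.

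**Figure D2:**
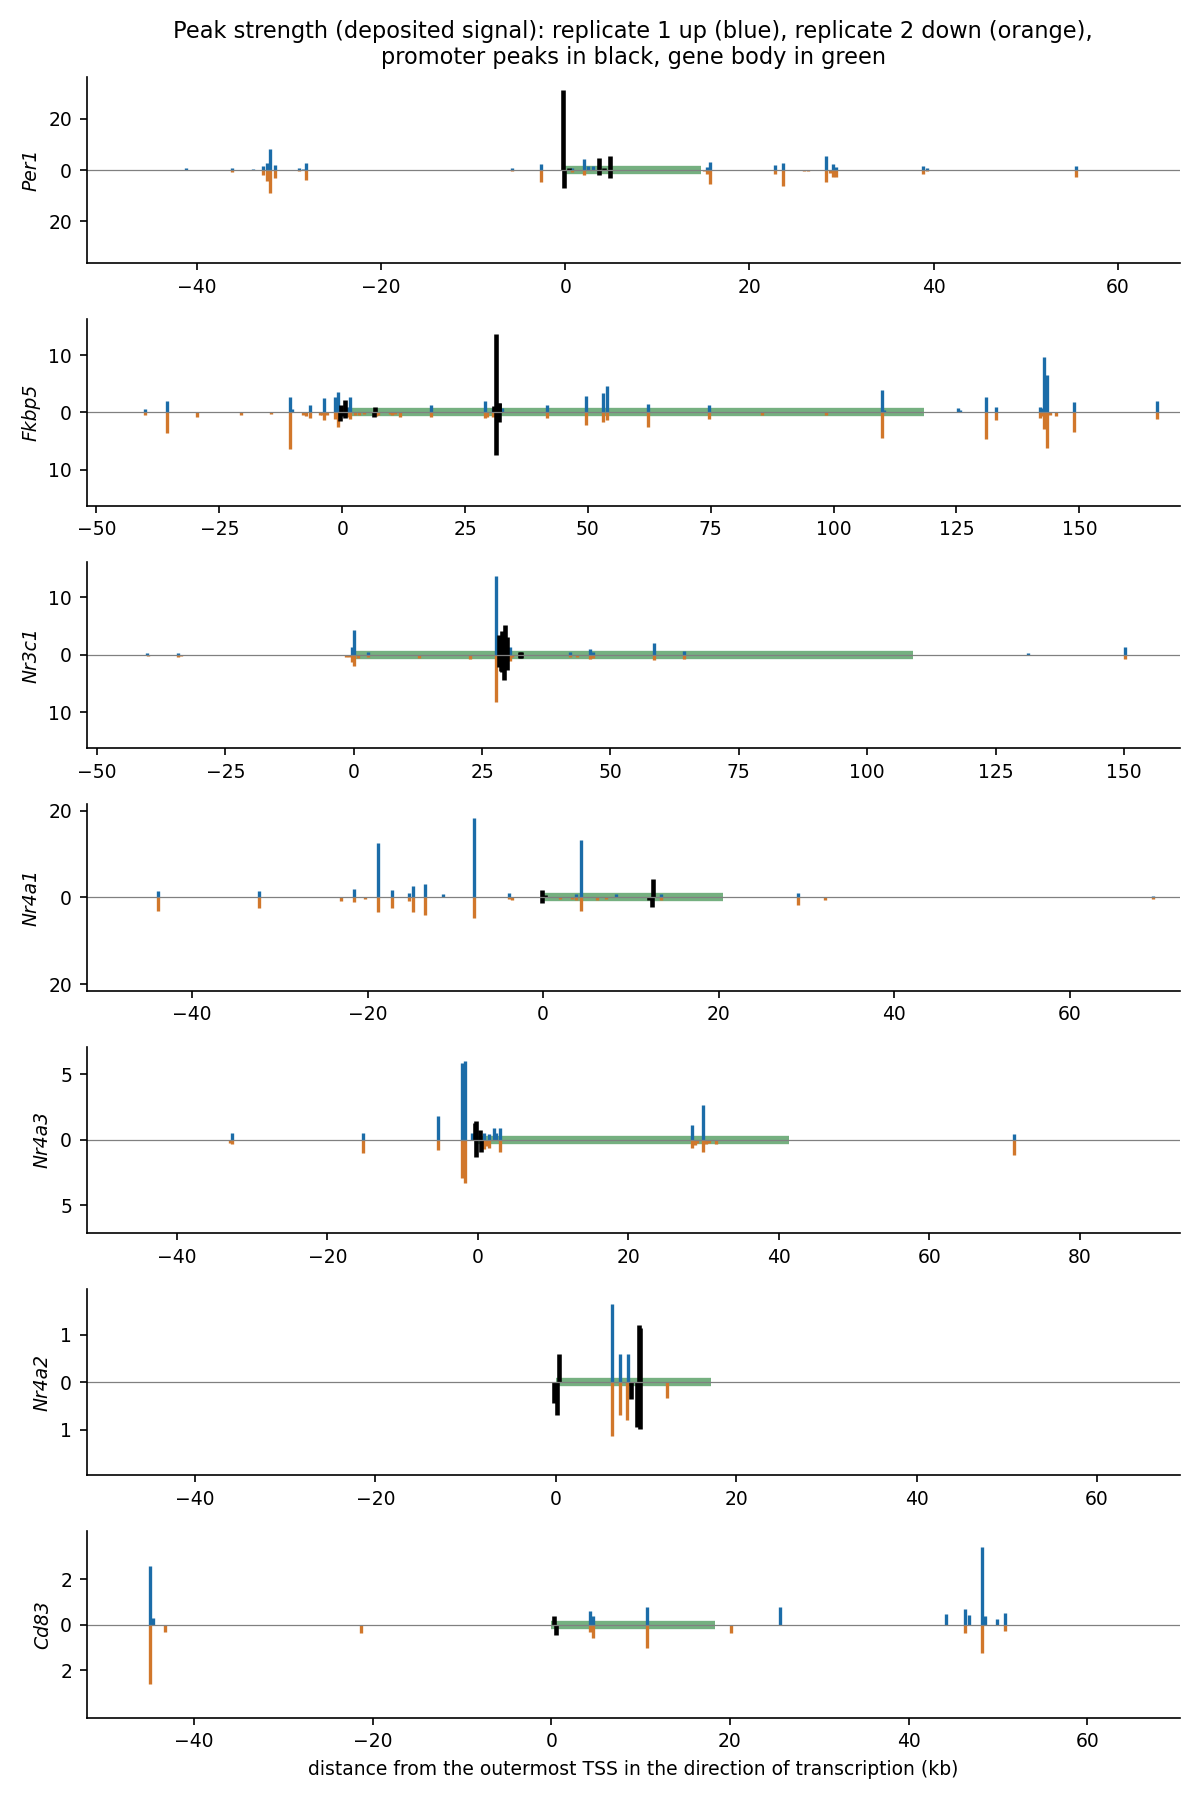
Strength (deposited signal, linear, own scale per gene) of every peak of the 7 spans against distance from the outermost TSS in kb, replicate 1 upwards in blue and replicate 2 downwards in orange, with promoter peaks in black and the gene body in green. At Nr4a1 the tallest line is 7.83 kb upstream and at Nr4a3 1.65 kb upstream, whereas at Fkbp5 it is the inner promoter 31.4 kb downstream and at Per1 in replicate 1 the outermost promoter.

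In 5 of the 7 genes, Nr4a1, Nr4a2, Nr4a3, Nr3c1 and Cd83, the strongest distal peak exceeded the strongest promoter peak in both replicates. This was so for 27.8% of the 12721 genes open in both replicates, a comparison added after the values were seen and one that low promoter strength favours. Fkbp5 did not show it, with ratios of 0.703 and 0.869. Per1 differed between replicates, with ratios of 0.261 and 1.26, and the distal peak behind both ratios was nearest to Borcs6, not to Per1. For Nr3c1 it rests on the region at starts of the full annotation.

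The spans held 120 distal peaks in replicate 1 and 153 in replicate 2. Relative to span length, Per1 had 22.7 and 21.8 distal peaks per 100 kb, Fkbp5 14.6 and 22.9, and Nr4a1 14.1 and 19.1, all at percentile 93.3 or higher among genes. Nr4a3 had 9.91 and 12.7, Cd83 11.0 and 8.45, and Nr3c1 6.70 and 10.5. Nr4a2 stood apart with 3.41 and 4.27, below the median of all genes, which was 3.88 and 4.85. The median of the 7 genes was 11.0 in replicate 1 and 12.7 in replicate 2, and 11.3 when each gene was averaged first, against 4.46 over all genes. The median of the 7 genes depended on the window: it was 14.8 with flanks of 25 kb and 7.79 with flanks of 100 kb, and 6.72 with the shorter peak list. The 4.46 over all genes holds for flanks of 50 kb and the longer list only, so these values cannot be set against it.

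**Figure D3:**
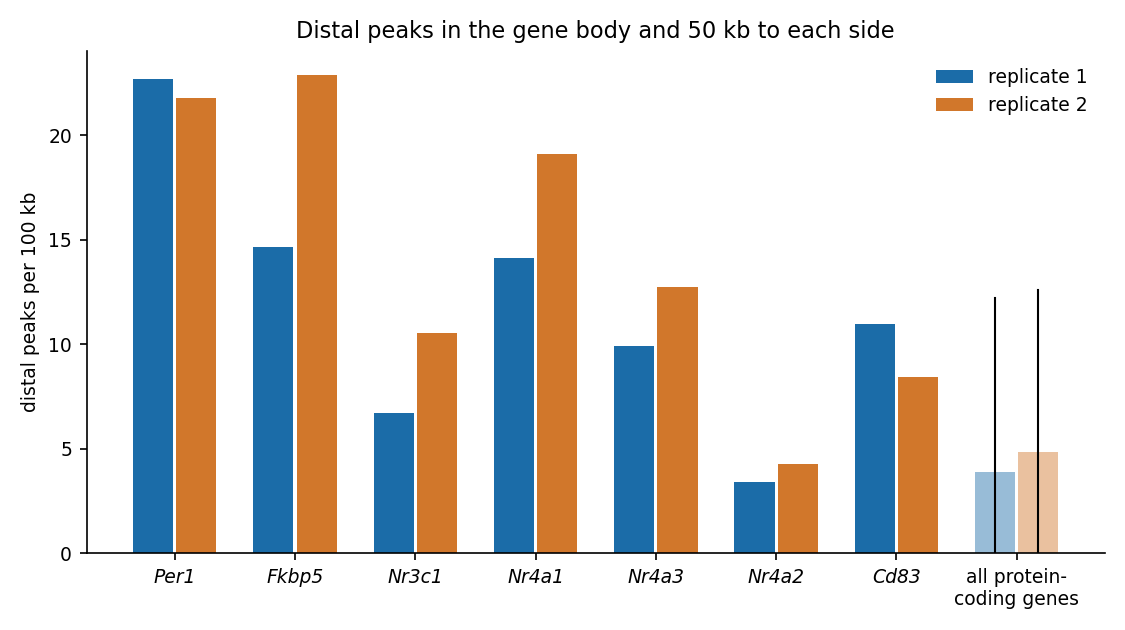
Distal peaks per 100 kb of each span, bars for replicate 1 (blue) and replicate 2 (orange); the pale bars are the median over all protein-coding genes and the black lines span their 10th to 90th percentile. All of the 7 genes except Nr4a2 stand above the median of all genes in both replicates.

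Span counts do not assign a peak to a gene. Merged over replicates there were 175 distal regions, 95 of them found in both, and the member held the nearest coding TSS of 117. Every region of Nr3c1 (23), Cd83 (16) and Nr4a2 (5) was nearest to the member, as were 20 of 21 at Nr4a3. At Fkbp5 it was 33 of 55 and at Nr4a1 14 of 25. At Per1 it was 6 of 30, and the Per1 span holds 8 other coding genes. The highest-ranked Per1 regions were nearest to other genes: Borcs6 (chr11:69063021-69063240, 8.08 and 8.91), 9130213A22Rik (chr11:69123481-69123680, 5.59 and 4.82) and Hes7 (chr11:69110841-69111020, 3.28 and 5.43). At Fkbp5 the leading regions (chr17:28373921-28374120, 6.59 and 6.19, and chr17:28374461-28374820, 9.65 and 2.81) were nearest to Tulp1, and the highest-ranked one nearest to Fkbp5 lay in its intron (chr17:28407501-28407700, 3.89 and 4.50).

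Pooled over the 7 spans, distal peaks were stronger than distal peaks at large. Their median strength was 1.23 in replicate 1 and 0.737 in replicate 2, against 0.675 and 0.559 over all distal peaks. Of them, 24 of 120 in replicate 1 and 34 of 153 (22.2%) in replicate 2 were in the strongest 10% of distal peaks of their replicate. Most of these lay at Per1 (6 and 12), Fkbp5 (9 and 10) and Nr4a1 (4 and 8). The genes differed: the median strength percentile among distal peaks was 80.7 and 89.4 at Per1, but 35.0 and 31.9 at Cd83, below the overall median. It was 43.7 and 58.9 at Nr4a2 and 56.5 and 45.5 at Nr3c1, on either side of the overall median. The distal peaks of the 7 spans together held 2.64 and 2.41 footprints each, against 2.11 and 2.18 over all distal peaks. Intergenic positions made up 51.7% and 43.1% of them, against 38.9% and 38.9%, and introns 39.2% and 45.8%, against 52.6% and 53.6%. Peak widths were close, with medians of 180 and 200 bp in the spans and 180 and 195 bp overall.

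Of the distal peaks in the spans, 96 of 120 (80.0%) of replicate 1 overlapped a peak of replicate 2, against 72.7% of all distal peaks. In the other direction 96 of 153 (62.7%) overlapped, against 61.5%. The share in replicate 1 was lowest at Cd83 (53.8%) and highest at Nr4a1 (88.2%), and in replicate 2 lowest at Fkbp5 (54.0%) and highest at Per1 (84.0%), so the order of the genes differed between replicates. The spans held 599 and 694 footprints, of which 53.4% and 46.5% overlapped a footprint of the other replicate, against 50.8% and 45.5% of all footprints. These shares were near those of the whole tables. Per 100 kb, Per1 had 135 and 126 footprints and Cd83 21.1 and 25.4, the ends of the range in both replicates.

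Matches to response elements of the receptors themselves were few in peaks of the set, and their shares over all distal peaks were low too. The glucocorticoid response element was read as the arms GNACA and TGTNC separated by 3 bases, a pattern equal to its own reverse complement. It occurred in 2 of 120 distal peaks of replicate 1 (1.67%), against 0.422% of all distal peaks, and in 1 of 153 of replicate 2 (0.654%), against 0.502%. With counts of 2 and 1 no difference from the whole can be read from these shares. All 3 matches in peaks of the set, printed above, were at Fkbp5. Match 1, 1134 bp downstream of Fkbp5-214, was in a peak of replicate 1 only, and match 3, 1514 bp before the outermost starts, in a peak of replicate 2 only. Match 2, 662 bp before those starts, was in peaks of both replicates. None of the 3 touched a footprint in either. The stricter arms AGAACA and TGTTCT had no match in these peaks, and occurred in 0.0055% and 0.00597% of all distal peaks. The NBRE (AAAGGTCA, either strand), to which NR4A proteins bind as monomers, had no match in any peak of the 7 genes, and occurred in 0.659% and 0.832% of all distal peaks. At shares this low, the lack of a match in 120 and 153 distal peaks cannot be read as a difference from the whole.

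The replicates ranked some regions differently. Of the 95 regions found in both, 51 had a higher strength percentile in replicate 2. All 4 of these regions with a CTCF motif match, 3 at Fkbp5 and 1 at Nr4a1, were among those 51, and each match touched a footprint of both replicates. The Nr4a1 region, in an intron of Acvr1b 43.9 kb upstream (chr15:101210321-101210500), had percentiles of 78.1 in replicate 1 and 95.9 in replicate 2. The Fkbp5 regions had 76.6 and 93.0 (chr17:28455221-28455400), 89.9 and 99.5 (chr17:28528081-28528280), and 90.04 and 98.5 (chr17:28386281-28386480). Over all distal peaks of replicate 1 that overlapped a distal peak of replicate 2, 97.4% of the 4773 with a CTCF match had the higher percentile in replicate 2, against 57.8% of all 51979. CTCF binds insulators and loop anchors. The strongest Nr4a1 regions ran the other way, with percentiles of 99.8, 99.5 and 99.5 in replicate 1 and 98.5, 96.2 and 95.4 in replicate 2.

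**Figure D4:**
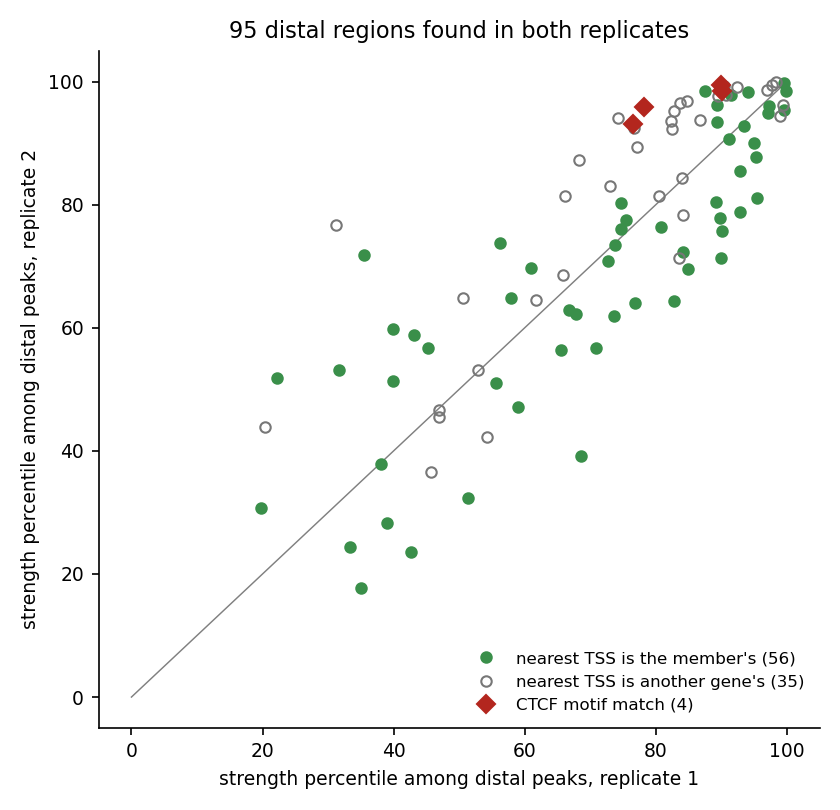
Strength percentile among distal peaks in replicate 1 (x) and replicate 2 (y) of the 95 distal regions of the 7 spans found in both, filled green where the member's TSS is the nearest coding one, open grey where another gene's is, and red diamonds for the 4 with a CTCF match. All red diamonds lie above the line of equal percentiles.

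Promoter windows of the set varied in CpG content. The observed over expected CpG ratio was 1.12 at Nr4a1-202 and 0.913 at Nr4a1-201, 0.957 at Nr4a2-201, 0.947 at Nr4a3-201, 0.996 at Nr3c1-201 and 0.872 at Fkbp5-201, all above the median of 0.567 over all windows. Per1-202 had 0.648. Cd83 had 0.387, below that median, and the outermost Fkbp5 start had 0.424. Nr4a2-202, which had no peak, was at 0.184. The strongest promoter of each NR4A gene was above the median window in CpG ratio and below the median open promoter in strength.

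Genes of the same pathways were read from 6 lists chosen by name. Of 26 other genes induced by T cell receptor signals or positive selection, 23 were open in both replicates. The medians over all 26 were a promoter percentile of 58.4 and 12.52 distal peaks per 100 kb. The highest mean percentiles, with strengths in replicates 1 and 2 in brackets here and for the lists that follow, were those of Dusp5 (22.2 and 14.2), a phosphatase of ERK, Gadd45b (29.4 and 8.42), a stress response gene, and Egr1 (17.8 and 9.34), an immediate early zinc finger factor. Tagap, Cd40lg and Tnfrsf9 were not open in both. Of 26 glucocorticoid targets, 21 were open in both, led by Txnip (35.8 and 12.1), Ddit4 (38.2 and 10.2) and Arrdc2 (38.2 and 9.78). Those not open in both were Mt1, which had a peak in replicate 1 (0.629), Fam107a, Lcn2, Tat and Pck1, of which Tat and Pck1 encode liver enzymes.

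Of 24 genes for receptor chaperones, coregulators and steroid enzymes, 22 were open, and Cyp11b1 and Cyp11a1, which encode enzymes of steroid synthesis, were not. The median percentile over all 24 was 81.6. The chaperone genes Hspa8 (36.0 and 13.9), Hsp90ab1 (32.7 and 13.02) and Dnajb1 (33.7 and 12.3) led them. All 20 clock genes were open, with Per2 (26.6 and 11.7), Dbp (38.2 and 8.98) and Nr1d2 (17.3 and 8.16) the highest. Of 45 other nuclear receptor genes 28 were open, with Esrra (44.5 and 14.1), Nr2c2 (25.6 and 13.2) and Rxrb (19.8 and 14.1) leading. The median percentile over all 45, open or not, was 47.0. Of 11 genes for CD83 partners, MHC class II and costimulatory or checkpoint surface proteins 7 were open, led by H2-Eb1 (5.04 and 4.96), Cd274 (8.25 and 3.29) and H2-Aa (3.35 and 3.89), and March1, Cd80, Cd86 and Ciita were not open in both. Over all protein-coding genes 58.6% were open in both replicates, and the median was percentile 50.1 with 4.46 distal peaks per 100 kb. The shares of open genes among the CD83 partners and surface proteins (63.6%) and the nuclear receptors (62.2%) were near that of all genes.

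The genes most alike each member were found by Euclidean distance over 4 values, the promoter percentile and the percentile of distal peaks per 100 kb in each replicate. They were Dph1 and Ikzf3 for Nr4a1 (distances 0.62 and 2.18), Bcl11a and Xiap for Nr4a2 (2.72 and 3.37), and Gm12216 and Capg for Nr4a3 (2.77 and 2.82). For Nr3c1 they were Vgf and Rpl32 (3.24 and 3.63), for Fkbp5 Psap and Mier1 (1.74 and 2.40), for Per1 Ifrd2 and AI467606 (1.84 and 2.50), and for Cd83 Rapgef4 and Soat2 (0.84 and 4.38). No member was among the closest genes of another.

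The labelled tissue was checked by its markers. All 12 thymocyte markers were open in both replicates, at a median percentile of 74.9. Of all protein-coding genes, 58.6% were open in both. Of markers of other cells, 4 of 10 were open for thymic epithelium, 4 of 8 for B cells, 5 of 12 for dendritic and myeloid cells, 4 of 8 for endothelium and mesenchyme, 1 of 7 for erythroid cells and 0 of 8 for hepatocytes. The share was below 58.6% in each of these lists of other cells, but the lists are short and no difference was tested. The 4 epithelial markers open in both were Ccl25, Aire, Cldn4 and Epcam, and the other 6, Foxn1, Psmb11, Krt5, Krt8, Krt14 and Dll4, were not. The cell type that gives the Cd83 signal was not tested. Replicate 1 had 97051 peaks and 276400 footprints and replicate 2 had 108010 and 318156, and the read depth is unknown from these tables.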

How the data were processed

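Per the files deposited with each sample, the authors called peaks, false discovery rates and footprints from that sample's own mm10 alignments, without pooling. Not given in the sources used here are the aligner, the callers, their settings and the mapping of CAST reads. Peak strength is the deposited signal column of the authors' longer peak list. The deposited track of p-values holds false discovery rates per run of bases and lists only values under 0.05. Strengths were whole multiples of 0.00519 in replicate 1 and 0.00576 in replicate 2 (tolerance 0.05 steps), so they were ranked within a replicate. Depth is unknown, so no counting interval is given.

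Distal peaks had no base within 500 bp of a TSS of any gene (GENCODE M21 basic). Shared peaks or footprints had at least 1 bp in common. Motif matches were read on both strands in peaks (Python 3.11.15, pandas 2.3.3, samtools 1.23.1), and steps were tested on simulated peaks. The text names all 7 genes, their promoter peaks, the 3 highest-ranked shared distal regions of each (2 at Nr4a2), the 3 highest genes of each list with those not open (where 5 or fewer), and the 2 nearest genes in likeness. Members, lists and motifs were chosen with earlier results of these data known. Alternatives were other peak lists, windows, flanks, overlaps, motif patterns, TSS sets and each replicate alone.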

Additional observations from a re-analysis of the deposited data

How the results depend on the processing

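No paired analysis was possible because the series has 1 group. The number of genes with an open promoter was 7 under 6 of the 8 alternatives and 6 with the shorter peak list and a TSS window of 250 bp, where Cd83 was lost. Of all protein-coding genes, 54.7% were open with the shorter list and 56.9% with the 250 bp window. Under the other 6 alternatives that share lay between 55.1% (outermost TSS only) and 62.4% (window of 2000 bp). The median promoter percentile of the 7 genes (62.1) was 66.7 with a TSS window of 2000 bp, 56.5 with the outermost TSS only and 67.6 with summed peak values. Median distal peaks per 100 kb (11.3) were 6.72 with the shorter list, 14.8 with flanks of 25 kb and 7.79 with flanks of 100 kb, and lay between 11.0 and 12.7 with 1 replicate left out. A reciprocal overlap of 50% gave 53.5% shared distal peaks in place of 71.4%, and 35.9% shared footprints in place of 49.98%. Glucocorticoid response element matches were in 1.16% of distal peaks on average, 0.0% with the strict pattern and 0.417% in a 150 bp window. Over all distal peaks of replicates 1 and 2 the shares were 0.422% and 0.502%, with the strict pattern 0.0055% and 0.00597%, and in the window 0.374% and 0.354%. The member counts are too small for a difference to be read. The alternative with TSSs of the full annotation was chosen after seeing the data and left 7 open promoters, a median percentile of 60.8 and a density of 11.3. The causes of these shifts were not tested, beyond fewer peaks in the shorter list. The spread behind each value rests on n = 2.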
